A study of Mus musculus with 33 samples.

Results

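The cytosolic ribosomal protein genes encode the proteins of the small (Rps) and large (Rpl) ribosomal subunits, including the stalk proteins Rplp0, Rplp1 and Rplp2. They were taken from both read count tables by symbol, without processed pseudogenes and S6 kinase genes, and with 10 or more reads summed over a table. This gave 83 of 19449 gene rows, of which 33 belong to the small and 50 to the large subunit. The tables count reads of CEL-seq2, a 3′ tag method, from bulk RNA of CD45+CD8+ T cells, sorted alive out of the skin of mice allergic to the hapten DNFB. The study asked how a topical glucocorticosteroid, labelled TA (0.01%, with acetone as vehicle), bears on skin-resident memory T cells (TRM).

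In the first experiment (17 libraries) the cells were CD69+CD103+ TRM of Nur77GFP mice, in which GFP is driven by the regulatory region of Nr4a1, an early target of T cell receptor signalling. GFP-negative cells were sorted at day 0, before the retest with DNFB (3 acetone and 2 TA libraries). GFP-negative and GFP-positive cells were sorted at day 1, 24 h after the retest (2 libraries for each GFP state in acetone and in TA). GFP-negative cells were sorted again at day 6, at 144 h (2 acetone and 2 TA). In the second experiment (16 libraries, 2 per group) cells of C57BL/6 mice were sorted at day 2 into 4 untreated subsets by CD69 and CD103, and at days 11 and 42 as CD69+CD103+ cells from acetone and TA skin. All mice had been sensitized and challenged with DNFB.

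The column codes of the tables resolve only some of these groups, namely day 0 acetone, the GFP state at day 1, and day 2 CD69+CD103+. At day 1 one treatment is named arm I and the other arm II, without knowing which is TA. Sets K, L and M are day 0 TA, day 6 acetone and day 6 TA in an order the codes do not give. Sets P, Q, R and S are day 11 and day 42 with acetone and TA, and subsets U, V and W are the other day 2 subsets, likewise not told apart. Nothing in the labels says that replicates came from separate animals, so p-values cover only the spread among libraries, which may be technical. In bulk RNA, fewer cells of a type and less RNA per cell cannot be told apart.

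Each ribosome holds about equal amounts of its proteins, and their mRNAs are among the most abundant of a cell. Many of these mRNAs start with a C followed by a run of pyrimidines, the 5′ terminal oligopyrimidine (TOP) motif, through which Larp1 and the kinase mTOR set how much of each mRNA is translated. When T cells are activated through their receptor they enlarge their supply of ribosomes, with Myc and mTOR as drivers.

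Start sites were matched to RefSeq for 62 members (GRCm38.p6). The first 5 windows below hold a C and 4 more pyrimidines at an annotated start. The other 5 belong to the members with which the results below open and do not. Each window runs 5′ to 3′ on the gene's strand from 10 bases before the start to 20 bases from it, and capitals mark the longest run of C or T within 20 bases of the start, where it holds 5 or more, as far as the window shows it. Shorter runs are left in lower case. Where a gene has several listed starts, the one with the motif or the longest run is shown. The windows lie at chr4:86857348-86857377 (minus) for Rps6, chr14:18270967-18270996 (minus) for Rpl15, chr7:4792955-4792984 (plus) for Rpl28, chr17:27635225-27635254 (minus) for Rps10 and chr2:39005112-39005141 (minus) for Rpl35. They lie at chr2:32961702-32961731 (plus) for Rpl12, chr17:33824543-33824572 (minus) for Rps28, chr10:128549149-128549178 (minus) for Rpl41, chr5:115559457-115559486 (plus) for Rplp0 and chr9:66946076-66946105 (plus) for Rps27l.
Rps6: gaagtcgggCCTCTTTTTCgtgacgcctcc
Rpl15: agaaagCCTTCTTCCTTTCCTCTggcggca
Rpl28: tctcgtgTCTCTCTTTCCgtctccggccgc
Rps10: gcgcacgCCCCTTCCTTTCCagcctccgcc
Rpl35: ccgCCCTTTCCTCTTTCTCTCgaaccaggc
Rpl12: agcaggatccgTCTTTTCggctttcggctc
Rps28: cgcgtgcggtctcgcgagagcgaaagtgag
Rpl41: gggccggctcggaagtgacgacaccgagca
Rplp0: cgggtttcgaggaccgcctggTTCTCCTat
Rps27l: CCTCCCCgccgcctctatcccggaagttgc

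A C followed by 4 pyrimidines at the start was found in 13 of 62 members (21%) and in 813 of 27025 genes with such windows (3.01%), searched on the gene's strand only. A run of 8 or more pyrimidines within 20 bases on either side of the start was found in 30 of 62 members (48.4%), against 18.4% of all genes. The Rpl12 and Rplp0 windows hold a pyrimidine run that begins inside the transcript and not at its annotated first base. Mitochondrial ribosomal protein genes, which serve the separate ribosome of the mitochondrion, held the motif at the start in 0 of 69. Of 15 other translation genes of TOP type with a matched start, 4 held it (26.7%). A match is a description of the annotated sequence, and no match says only that these letters do not begin at an annotated first base.

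Library totals ran from 2442825 to 8515297 reads in the first experiment and from 2937814 to 13629838 in the second. Of 83 members, 72 had 1000 or more reads in each table. The other 11 were Rpl10l, Rpl22l1, Rpl26, Rpl30, Rpl34, Rpl37, Rpl39l, Rplp2, Rps15a, Rps27 and Rps4y2. The stalk protein gene Rplp2 held 296 and 283 reads in all, and Rpl26 held 12 and 18. The highest sums included those of Rps6, Rpsa, Rps13 and Rps3a1 in the first table and of Rpsa, Rps6, Rpl5 and Rpl13a in the second. After a filter on low counts 81 members were tested in the first experiment, without Rpl22l1 and Rpl26, and 80 in the second, without these 2 and Rpl10l. Members have many processed copies in the genome. Of 82 members found in GENCODE vM21, 30 shared over 50% of the 75-base windows of their last 300 bases with transcripts of other genes, and 31 shared none. The sources used here do not say how reads that match several places were counted, so the counts of members with shared windows are uncertain. Among members named below the shared portion was 100% for Rpl9 and Rps27, 87.6% for Rpl36, 85.8% for Rpl10a and 85.4% for Rps27a. It was 81.4% for Rps6, Rpl13 and Rpl27, 79.2% for Rpl18, 77.9% for Rpl30, 65% for Rps18 and 64.6% for Rps2. It was 0% for Rpl12, Rplp0 and Rpl5. Other named members are left out here.

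The labelled cell type was checked against marker genes. Summed T cell markers (6 genes) lay at 2237 to 7322 CPM, reads of a gene per fixed number of library reads, in the first experiment and 3588 to 6282 in the second, and none was at 0 in any group. Keratinocyte markers (15 genes) were also present, from 330 to 5320 CPM in the first experiment. Mitochondrially encoded transcripts took 22.2% to 36.7% of reads in the first experiment and 12.8% to 21.3% in the second. Per library, Nr4a1 lay at 3317 to 4433 CPM in GFP-positive cells and at 814 to 1343 in GFP-negative cells of day 1.

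The members together took 13.1% to 19.4% of the reads of a library in the first experiment. The share was 16.2%, 15.8% and 16.5% in the day 0 acetone libraries, 18.5% and 19.4% in set K, 15.02% and 14.3% in set L, and 18.0% and 18.3% in set M. Both libraries of K and of M lay above all 3 day 0 libraries, and both of L lay below them. At day 1 the share was 14.5% and 13.5% in GFP-negative and 13.1% and 13.9% in GFP-positive cells of arm I, against 16.9% and 15.6%, and 16.4% and 16.6%, in arm II. All 4 libraries of arm I lay below all 4 of arm II. Sets K and M, near each other on this scale, stood apart once mitochondrially encoded reads were taken out of the total. The share was then 29.1% and 29.8% in K and 23.5% and 24.2% in M, against 21.5% to 23.03% at day 0 and 18.9% and 19.9% in L. On that scale arm I had 18.9% and 20.4% in GFP-negative and 16.8% and 18.8% in GFP-positive cells, again below arm II, with 24.7% and 26.4%, and 23.2% and 23.8%. In the second experiment the share ran from 13.6% (set S) to 17.8% (set Q), and set Q held both 17.8% and 15.05%. The small subunit held 41.3% to 44.8% of the members' reads in every library of both experiments.

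**Figure D1:**
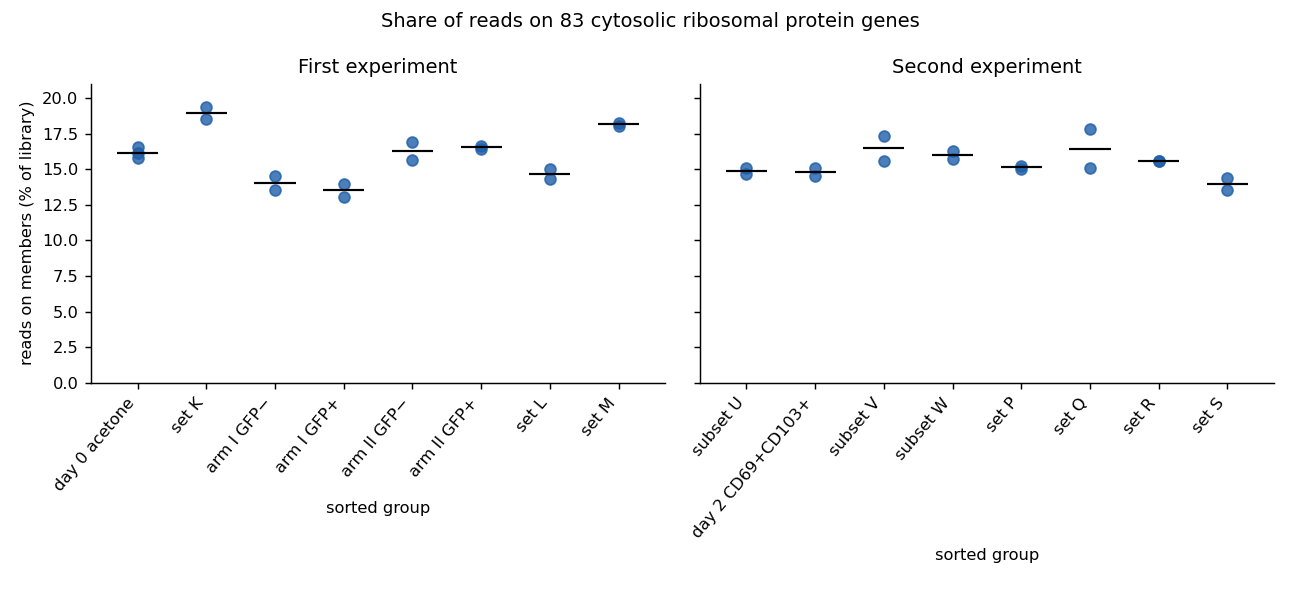
Percent of each library's reads on the 83 cytosolic ribosomal protein genes, by sorted group, with the first experiment at left and the second at right; points are libraries and lines are group means. Sets K (18.5% and 19.4%) and M (18.0% and 18.3%) lie above day 0 acetone (15.8% to 16.5%), and arm I lies below arm II.

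The first comparison set K, L and M against day 0 acetone, which all 3 share as control. Values per library are given as scaled CPM, the CPM after scaling by TMM factors, the trimmed mean scaling of edgeR. A gene was called at an adjusted p under 0.05 in the quasi-likelihood test of edgeR, with Benjamini-Hochberg adjustment across every gene tested in that comparison. Counts at an unadjusted p under 0.05 are looser and are not comparable with the shares of all genes called. Those counts and the counts of DESeq2 stand without the matching share of all genes. They therefore do not set members apart from other genes. The ± after a log2 difference is its standard error. In set K 30 of 81 members rose and 1 fell, with a median log2 difference of 0.37, against a median of −0.03 over all genes. Of all genes 1.19% rose and 2.34% fell (3.53% called). The small subunit had 14 risen and 1 fallen of 33 (median 0.39), and the large subunit 16 risen and 0 fallen of 48 (median 0.36).

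The largest called rise in set K was that of Rpl12, which sits at the base of the stalk where elongation factors bind. Rpl12 (chromosome 2, 32961559 to 32965345) had 5535 and 6207 scaled CPM in set K and 3486, 3328 and 3395 at day 0. Both set K libraries were higher than every day 0 library, and the log2 difference was 0.79 ± 0.12 (edgeR adjusted p = 0.00027). Rps28, a small subunit protein near the mRNA exit (chromosome 17, 33819027 to 33824562), had 3920 and 3913 in set K and 2503, 2530 and 2380 at day 0. The groups did not overlap, with a log2 difference of 0.66 ± 0.08 (edgeR adjusted p = 3.4e-05). Rps14, a platform protein of the small subunit, had 2801 and 2784 against 1705, 1762 and 1754, again without overlap (0.68 ± 0.10, edgeR adjusted p = 0.000176).

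Rps21 of the small and Rpl36 of the large subunit followed in size, with log2 differences of 0.64 ± 0.12 and 0.66 ± 0.11. Rps6, the substrate of the S6 kinases, had 6656 and 7159 in set K and 5144, 5612 and 5053 at day 0 (0.39 ± 0.09, edgeR adjusted p = 0.0161). All set K values of Rps6 were above those of day 0. Rps27a, which is made as a fusion with ubiquitin, rose by 0.38 ± 0.10 (edgeR adjusted p = 0.0421). Rpl13a, Rpl22, a protein needed in developing αβ T cells, and Rpsa had log2 differences of 0.35, 0.35 and 0.31 and were not called.

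The stalk proteins were not among the called members of set K. Rplp0, which anchors the stalk, had 2148 and 2052 against 1958, 1922 and 1969 (log2 difference 0.11 ± 0.10, edgeR adjusted p = 0.668), and Rplp1 had a log2 difference of 0.32 ± 0.10 (edgeR adjusted p = 0.0916). Rps2, at the mRNA entry channel, and Rpl41, a short basic peptide, had log2 differences of 0.20 and 0.04. The one member that fell was Rps27l, the paralog of Rps27 and a known p53 target (chromosome 9, 66946086 to 66949516). It had 39.8 and 47.9 in set K and 71.2, 94.95 and 89.5 at day 0 (−0.96 ± 0.22, edgeR adjusted p = 0.0131).

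Rps23, a protein of the decoding centre, had the largest difference in set K without a call among members with 1000 or more reads. Its values were 3034 and 3021 in set K against 1403, 1625 and 1635 at day 0 (log2 difference 0.96 ± 0.55, edgeR adjusted p = 0.461). Its 2 libraries in set L stood far apart, at 1612 and 258.4.

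In set M 27 of 81 members rose and 0 fell, with a median log2 difference of 0.34, against −0.02 over all genes, of which 2.86% rose and 1.7% fell (4.56% called). The small subunit had 9 of 33 and the large subunit 18 of 48 risen. The largest called differences were those of Rps27l, Rpl41, Rps2, Rplp0 and Rpl10a. Rps27l had 175.9 and 153.3, above every day 0 library (0.95 ± 0.20, edgeR adjusted p = 0.00679). Rpl41 (chromosome 10, 128548114 to 128549305) had 3879 and 3478 in set M and 2201, 2343 and 2186 at day 0 (0.71 ± 0.10, edgeR adjusted p = 0.00018). Both set M libraries again lay above day 0.

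Rps2 (chromosome 17, 24718116 to 24721929) had 2085 and 1948 in set M against 1202, 1322 and 1239 (0.69 ± 0.10, edgeR adjusted p = 0.000289). Rplp0 (chromosome 5, 115559467 to 115563727) had 3174 and 2895 against 1958, 1922 and 1969 (0.64 ± 0.10, edgeR adjusted p = 0.000481). In both genes the groups did not overlap. Rpl10a of the L1 stalk rose by 0.63 ± 0.11, Rps6 by 0.46 ± 0.09 and Rplp1 by 0.38 ± 0.10. Rpl12, Rps21, Rps14 and Rpl36, which led in set K, had log2 differences of 0.11, −0.04, 0.29 and 0.24 in set M and were not called.

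Of the 3 sets, L had the fewest calls against day 0. Of 81 members 1 fell and 0 rose, with a median of −0.13, against −0.01 over all genes, of which 0.276% rose and 0.621% fell (0.897% called). The unadjusted p of edgeR was under 0.05 for 13 members, and DESeq2 called 4 as lower. The called member was Rpl5, which together with Rpl11 and the 5S RNA binds Mdm2. It had 2507 and 2560 in set L and 3329, 3854 and 3585 at day 0, without overlap (−0.50 ± 0.12, edgeR adjusted p = 0.0439). The call was lost without any 1 of the day 0 acetone libraries, set L B, set M A or set M B.

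These counts rested on few libraries. The 31 calls in set K became 12, 15 and 11 without day 0 acetone A, B or C, 11 and 7 without set K A or B, 16 without arm I GFP-negative B, and 14 without set L A or B. The 27 calls in set M became 14 without day 0 acetone C, and 10 and 15 without set M A or B. With library totals as the only scaling, an alternative chosen after seeing the data, the median over all genes moved by −0.16 in K and by −0.15 in M. The calls were then 13 higher and 1 lower in K and 12 higher in M, and the members' median stayed 0.40 and 0.36 above that of all genes.

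**Figure D2:**
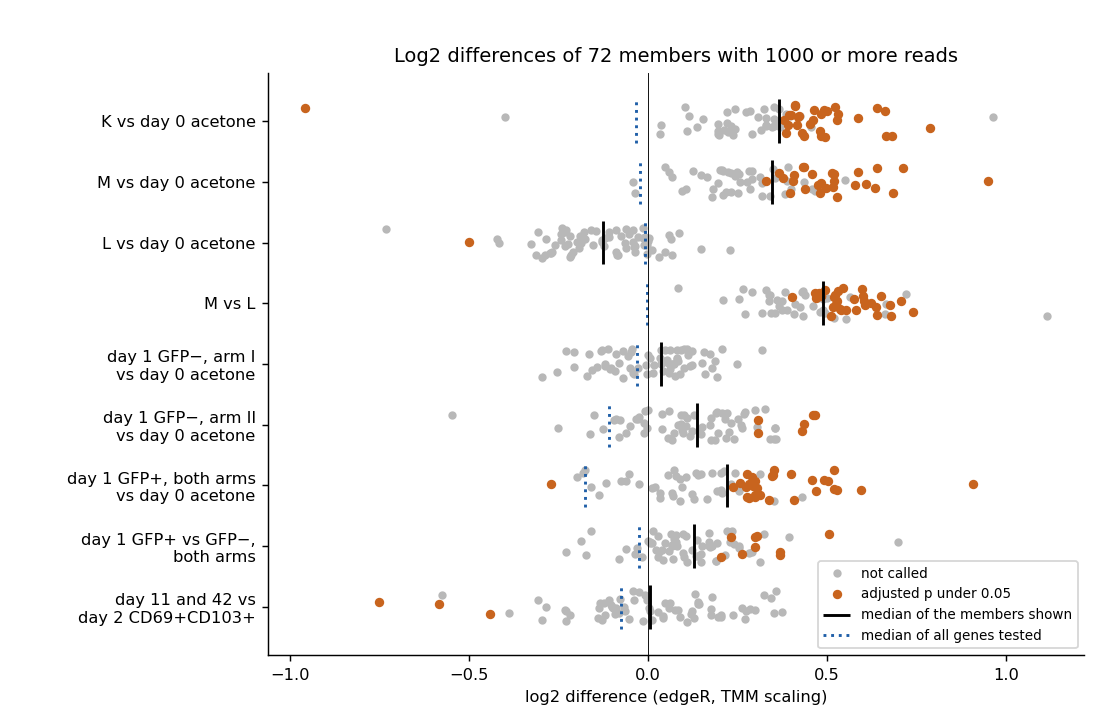
Log2 difference (x axis, edgeR with TMM scaling) of each of the 72 members with 1000 or more reads in 9 comparisons; orange points have an adjusted p under 0.05, black bars are the members' medians and blue dotted bars the medians of all genes tested. The members' cloud lies right of the all-gene median in sets K and M and in day 1 GFP-positive cells against day 0 acetone, and left of it in set L.

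Sets K, L and M were then compared with each other. Against set K, set L had 42 members lower and 1 higher of 81 (median −0.52, against 0.00 over all genes). Of all genes 3.41% were higher and 2.3% lower (5.71% called). Rpl12 had 2693 and 2384 in set L against 5535 and 6207 in set K (−1.21 ± 0.13, edgeR adjusted p = 4.44e-06). Rps21 followed with 953.7 and 869 against 1784 and 2002 (−1.05 ± 0.13). The groups did not overlap in either gene. Rpl5, Rps14 and Rps28 differed by −0.94, −0.87 and −0.82 and were called. Rps27l was the member that was higher in L (1.19 ± 0.23, edgeR adjusted p = 0.00262). Without set L A or B the 43 calls became 26 and 12, and with library totals as scaling 31 were lower and 1 higher, as the median over all genes moved by 0.17.

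Set M had 32 members higher than in set L and 0 lower (median 0.49, against −0.01 over all genes). Of all genes 1.48% were higher and 0.501% lower (1.98% called). Rps2 (2085 and 1948 against 1207 and 1210), with a log2 difference of 0.74 ± 0.11, was the largest called. The stalk genes Rplp1 (4594 and 3873 against 2671 and 2525) and Rplp0 followed with 0.71 ± 0.11 and 0.68 ± 0.11. In all 3 genes the sets did not overlap. Rpl13 and Rpl41 differed by 0.67 and 0.65, and Rpsa and Rpl22 were called as well (0.58 and 0.60). The 32 calls became 12 and 3 without set L A or B and 8 and 18 without set M A or B. With library totals as scaling they were 12, all higher, while the median over all genes moved by −0.18.

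Sets M and K had near equal medians, but single members differed in both directions. Of 81 members 5 were higher and 6 lower in M (median 0.04, against −0.01 over all genes), a share of 13.6% beside 8.88% of all genes, with 5.83% higher and 3.05% lower. The higher ones were Rps27l (1.91 ± 0.23, edgeR adjusted p = 1.76e-05), Rpl41 (0.68), Rplp0 (0.53), Rps2 (0.49) and Rps20 (0.40). The lower ones were Rpl12 (−0.68), Rps21 (−0.68), Rpl36 (−0.42), Rps28 (−0.42), Rps14 (−0.39) and Rpl13a (−0.38). Rps27l stood at 175.9 and 153.3 in M and at 39.8 and 47.9 in K, so the sets lay on opposite sides of day 0 for this gene. The 11 calls became 6 and 7 without set K A or B, and 6 and 7 without set M A or B.

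Set K against day 0 and M against L share no library, and neither do M against day 0 and L against K. The 30 members risen in K over day 0 and the 32 higher in M than in L had 15 in common, 50% and 46.9% of the lists, where the 2 lists hold 37% and 39.5% of all 81 members. Across 72 members with 1000 or more reads the log2 differences of this pair had r = −0.029. The 27 members risen in M over day 0 and the 42 lower in L than in K had 11 in common, 40.7% and 26.2%, where the 2 lists hold 33.3% and 51.9% of all members. The log2 differences of this pair had r = 0.593 over the same 72 members. As most differences of L against K were negative, this sign means that members with a larger rise in M tended to be less far below K in L. These r are a description, since members of one library share its depth and scaling.

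**Figure D3:**
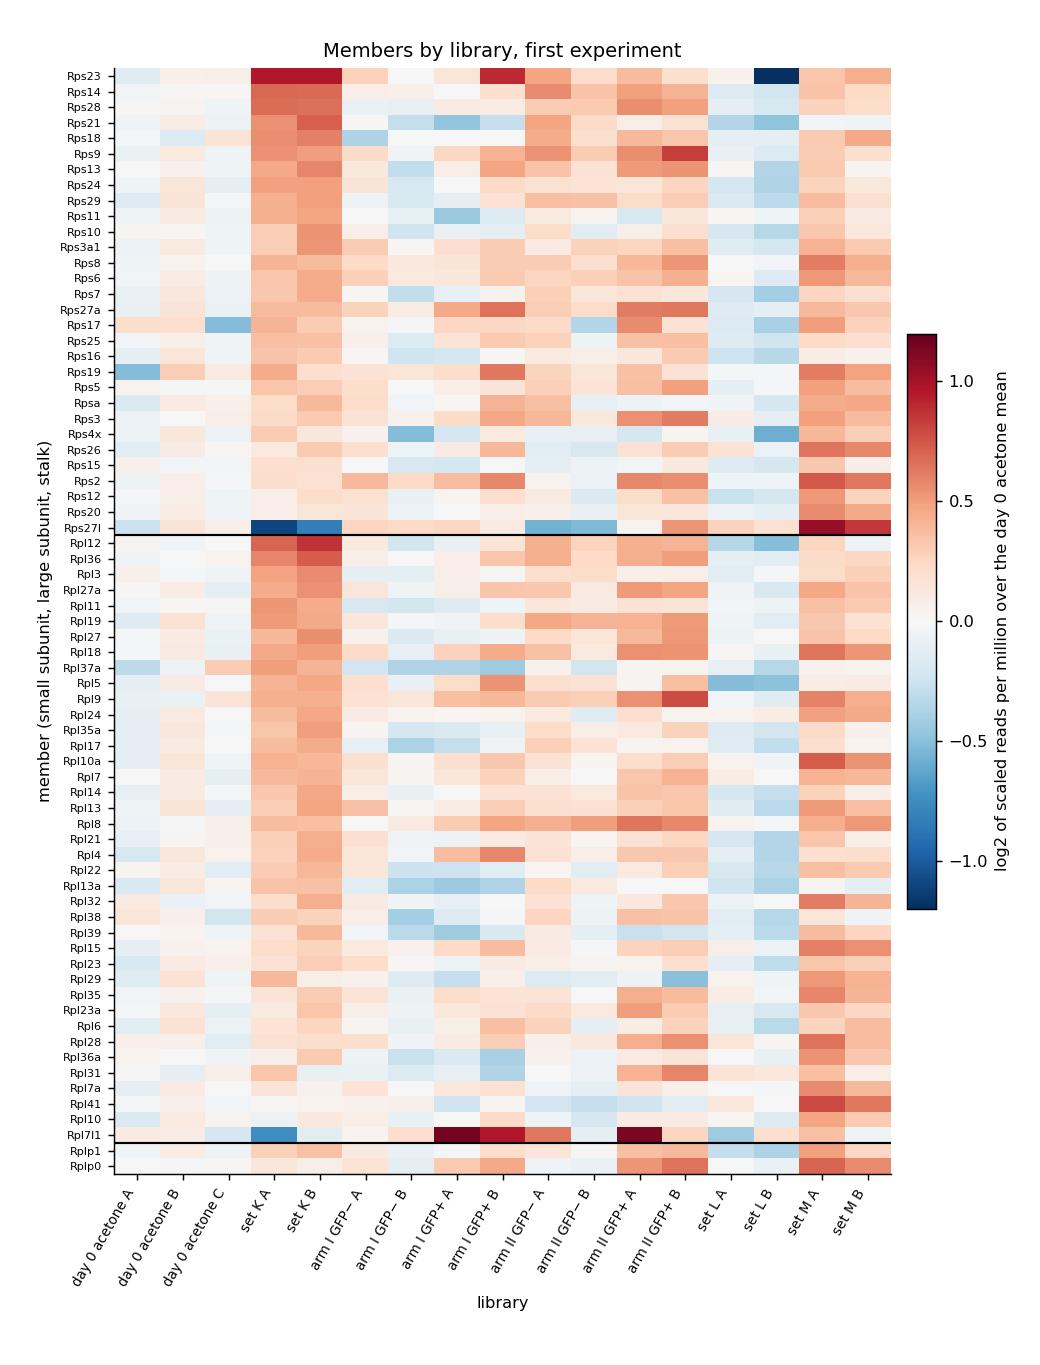
Log2 of scaled CPM over the day 0 acetone mean for members with 1000 or more reads in the 17 libraries of the first experiment; rows are sorted by the set K mean within small subunit, large subunit and stalk, and colours are clipped at 1.2 in either direction. Most rows are red in sets K and M and pale or blue in set L, while Rps27l is blue in K (39.8 and 47.9 scaled CPM) and red in M (175.9 and 153.3).

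Other measures moved with these sets. Keratinocyte markers summed to 2754 to 3502 CPM at day 0, 1616 to 1647 in K, 896 to 924 in L and 5000 to 5320 in M, and 12 of 14 tested were called higher in M than in L. Flg2 was at 0 reads in L, and Krt6b and Flg2 in K. Mononuclear phagocyte markers (11 genes) summed to 220 to 394 at day 0, 20.3 to 42.3 in K, 232 to 284 in L and 242 to 300 in M, and 4 of 10 tested were called lower in K than at day 0. Of these markers Cd14, C1qa and Lyz2 were at 0 reads at day 0, Cd14, C1qc, Csf1r and Lyz2 in K, and C1qa and C1qc in both L and M. Neutrophil markers (5 genes) summed to 1.72 to 10.7 at day 0, 8.81 to 11.7 in K, 3.66 to 39 in L and 28.1 to 37.1 in M, with 2 of 4 tested called higher in M than at day 0. T cell markers summed to 6051 to 7322 at day 0, 4072 to 4706 in K, 6686 to 6864 in L and 5549 to 5980 in M, and 2 of 6 were called lower in K than at day 0. Fibroblast markers (7 genes) summed to 43.6 to 169 at day 0, 12.9 to 26.8 in K, 2.93 to 5.82 in L and 10.2 to 15.5 in M. Among them Col3a1 was at 0 reads in K, Pdgfra and Lum in L, and Pdgfra in M. Mitochondrial transcripts took 34.9% and 36.3% of reads in K, 22.2% and 25.4% in M and 24.4% and 24.5% in L. With mitochondrial genes left out of the counts, the calls were 31 higher and 1 lower in K and 30 higher in M. The part of the other cell types' RNA in the result was not tested.

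Other genes of translation were counted as well. Of all genes 3.53% were called in K (1.19% higher and 2.34% lower) and 4.56% in M (2.86% higher and 1.7% lower). TOP-type genes had 6 risen and 0 fallen of 21 in K (median 0.35) and 4 risen and 1 fallen in M (median 0.34). In K these included Gnb2l1 (0.50 ± 0.10), a scaffold protein of the small subunit, and the elongation factor gene Eef2 (0.47 ± 0.10). In M they included Eef1b2 (0.61 ± 0.10), an exchange factor for elongation factor 1. Mitochondrial ribosomal protein genes had 0 called of 76 in K by edgeR (5 at an unadjusted p under 0.05) and 8 risen in M, among them Mrpl35 (1.55 ± 0.34), Mrpl33 and Mrpl12. Of 24 tested genes that control ribosomal protein synthesis, none was called in K by edgeR (3 at an unadjusted p under 0.05), and Eif4ebp1, an inhibitor of cap-dependent initiation, rose in M (1.63 ± 0.45, edgeR adjusted p = 0.0402).

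The members were also described by a C and 4 more pyrimidines at the annotated start. Among members with 1000 or more reads, 10 had these letters there and 43 did not. Their medians were 0.39 and 0.35 in K, 0.31 and 0.34 in M, and 0.45 and 0.52 in M against L. The 43 include Rpl27a and Rpl7a, with runs of 20 and 21 pyrimidines across a start whose annotated first base is T. The lists therefore cannot tell TOP from other mRNAs. These medians describe the lists, and RNA abundance does not measure translation.

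At day 1 GFP-positive cells were compared with GFP-negative cells over both arms. Of 81 members 9 rose and 0 fell, with a median of 0.14 against −0.03 over all genes. The 11.1% of members called stood beside 12.1% of all genes, with 5.59% risen and 6.51% fallen. Rplp0 led, with 2423 and 2673 in arm I and 2823 and 3065 in arm II among GFP-positive cells, and 2187 and 1812 in arm I and 1893 and 1839 in arm II among GFP-negative cells. Every GFP-positive library was above every GFP-negative one (0.50 ± 0.08, edgeR adjusted p = 0.000131).

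Rps27a had 2633, 3006, 2943 and 2977 in GFP-positive cells and 2324, 2036, 2356 and 2238 in GFP-negative ones, without overlap (0.37 ± 0.08, edgeR adjusted p = 0.00313). Rps2 had 1623, 1865, 1870 and 1842 against 1646, 1481, 1293 and 1197, and here 1 GFP-negative library of arm I lay within the GFP-positive range (0.37 ± 0.08, edgeR adjusted p = 0.00291). Rpl4 and Rpl18 of the large subunit rose by 0.30 each. Rps6 (0.07), Rpsa (−0.03), Rpl22 (0.06) and Rpl13a (−0.16) were not called.

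In arm I alone no member was called (5.36% of all genes were, 2.33% higher and 3.03% lower), with 13 members at an unadjusted p under 0.05 in edgeR and 5 called by DESeq2. In arm II alone 4 of 81 rose and 0 fell, beside 8.07% of all genes called (4.06% higher and 4.01% lower). They were Rps27l (0.85 ± 0.23, edgeR adjusted p = 0.0259), Rplp0 (0.66), Rps2 (0.58) and Rps27a (0.37). The test of the difference between the arms called no member, beside 0.889% of all genes called (0.639% higher and 0.25% lower). At an unadjusted p under 0.05 in edgeR there were 2 members, and DESeq2 called 0. The 9 calls over both arms became 16 without day 0 acetone A or set M A and 18 without arm II GFP-negative A. Leaving out library B of arm I left 4 (GFP-negative) or 3 (GFP-positive), and they were 5 without either GFP-positive library of arm II or either library of set L. The 4 calls in arm II became 2 without either of its GFP-negative libraries or without its GFP-positive library B. With library totals as scaling the median over all genes moved by −0.13, and 3 members were higher and 4 lower over both arms. In arm I it moved by −0.16, with 3 members lower. Phagocyte markers, of which 5 of 10 tested were called higher in GFP-positive cells over both arms, summed to 658 to 836 CPM in GFP-positive and 794 to 810 in GFP-negative cells of arm I, and to 326 to 337 and 27.8 to 55.6 in arm II. Keratinocyte markers summed to 1105 to 1409 in GFP-positive and 2251 to 2573 in GFP-negative cells of arm I, and to 527 to 638 and 330 to 459 in arm II, with 1 higher and 2 lower of 14 over both arms. T cell markers summed to 2237 to 2427 against 4336 to 4414 in arm I and to 3085 to 3324 against 3235 to 3597 in arm II, with 2 of 6 lower. Mitochondrial reads averaged 24.1% in GFP-positive and 28.5% in GFP-negative cells of arm I, and 29.7% and 36.3% in arm II. The part of these in the result was not tested.

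Against day 0 acetone, GFP-positive cells of both arms had 29 of 81 members higher and 1 lower. The members' median was 0.23, against −0.18 over all genes, of which 10.8% rose and 14.7% fell (25.6% called). One of the arms is TA and the control is acetone only, so retest, GFP state and treatment cannot be told apart here. Rps27a rose by 0.59 ± 0.09 (edgeR adjusted p = 3.42e-05), with 2633, 3006, 2943 and 2977 against 1796, 2135 and 1816 at day 0. Rpl7l1, the paralog of Rpl7, had 74.3, 65.7, 73.5 and 40.3 against 35.9, 35.8 and 29.2 (0.91 ± 0.28, edgeR adjusted p = 0.0203). Neither gene overlapped between the groups.

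Markers of cell types moved in this comparison as well. T cell markers summed to 2237 to 2427 CPM in arm I and 3085 to 3324 in arm II, against 6051 to 7322 at day 0, with 1 higher and 5 lower of 6. Keratinocyte markers summed to 1105 to 1409 and 527 to 638 against 2754 to 3502, with 4 higher and 8 lower of 14. Phagocyte markers summed to 658 to 836 and 326 to 337 against 220 to 394, with 6 higher and 1 lower of 10. Fibroblast markers summed to 1.64 to 2.7 and 41.4 to 44.1 against 43.6 to 169. Neutrophil markers summed to 76.2 to 85.2 and 11.6 to 38.6 against 1.72 to 10.7, with 2 of 4 higher, and Retnlg and Csf3r were at 0 reads at day 0, Csf3r also in arm I and Retnlg in arm II. The part of these in the result was not tested.

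Rpl9, Rps2 and Rps9 rose by 0.53, 0.52 and 0.52, and Rplp0 by 0.49. Rpl39, which lines the exit tunnel, fell by 0.27 on the log2 scale (edgeR adjusted p = 0.0357). The direction of this comparison depended on the scaling. With library totals the median over all genes moved by −0.31, and 2 members were higher and 22 lower, while the members' median stayed 0.40 above that of all genes (0.41 with TMM). The log2 differences of Rps6 and Rplp1 were then −0.01 and −0.07, where they had been 0.31 and 0.24 and called. The 30 calls became 19 and 11 without day 0 acetone B or C, 19 without set L A or B, and 15 without library B of arm I GFP-positive cells.

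**Figure D4:**
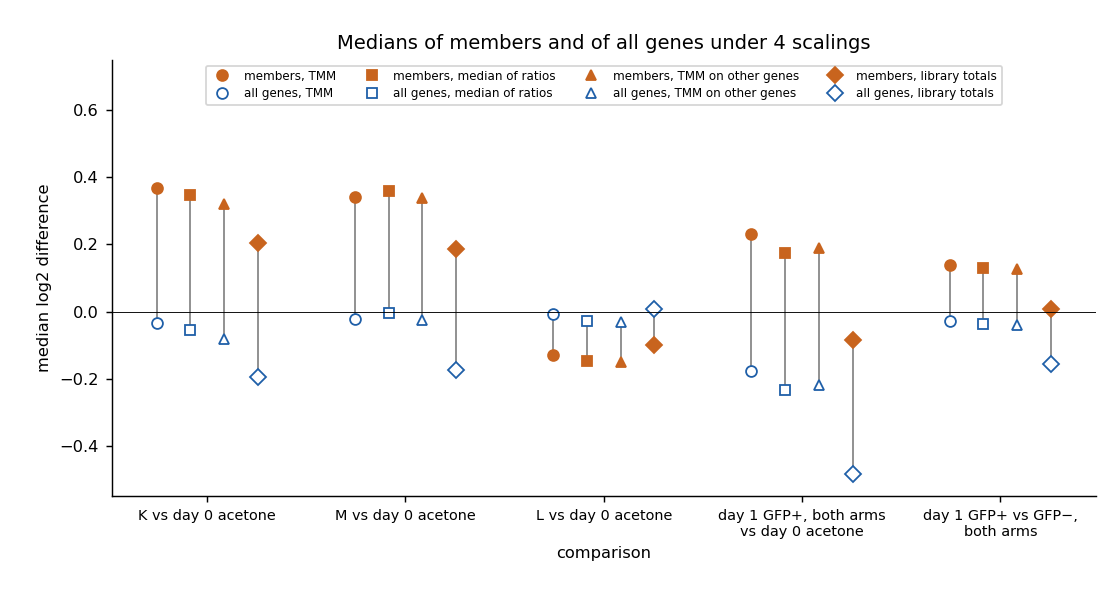
Median log2 difference of the members (orange) and of all genes tested (blue, open) in 5 comparisons under 4 scalings of the libraries. With library totals both medians are lower than with TMM in 4 of the 5 comparisons, and the distance between them changes little, for example 0.40 and 0.41 in day 1 GFP-positive cells against day 0 acetone.

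GFP-negative cells of day 1 had fewer calls against day 0 acetone, which they share as control with the comparisons above. In the arm that is TA, retest and treatment cannot be told apart. In arm I no member was called beside 3.94% of all genes (2.78% higher and 1.16% lower), with 5 members at an unadjusted p under 0.05 in edgeR and 1 lower by DESeq2. In arm II 6 of 81 rose and 0 fell, beside 8.63% of all genes called (3.48% higher and 5.15% lower). These included Rpl8 (0.47 ± 0.10), Rps14 (0.46 ± 0.10), Rpl19 (0.44), Rps9 (0.43) and Rps28 (0.31). The 6 calls became 2 without any 1 of the day 0 acetone libraries, arm II GFP-negative B, set L A or set L B, and 1 without arm II GFP-negative A. With library totals as scaling, arm I had 9 members lower and arm II 2 higher and 2 lower, as the medians over all genes moved by −0.20 and −0.16. Of 14 keratinocyte markers 5 were higher and 4 lower in arm I, and 0 higher and 8 lower in arm II. Of 10 phagocyte markers 5 were higher and 0 lower in arm I, and 1 higher and 4 lower in arm II. T cell markers summed to 4336 to 4414 CPM in arm I and 3235 to 3597 in arm II, against 6051 to 7322 at day 0. The part of these markers in the result was not tested.

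The arms were also compared directly. In GFP-negative cells arm II had 9 of 81 members higher and 1 lower than arm I (median 0.13, against −0.07 over all genes). Of all genes 1.98% were higher and 4.7% lower (6.69% called). Rps18 (0.50 ± 0.13), Rps21 (0.48 ± 0.13), Rps29 (0.48), Rpl17 (0.46) and Rpl13a (0.43) were the largest. Rps21 had 1683 and 1424 in arm II and 1227 and 994.9 in arm I, without overlap. Rps27l was lower in arm II, with 57.3 and 59.1 against 101.6 and 100.8 (−0.80 ± 0.23, edgeR adjusted p = 0.0406).

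In GFP-positive cells arm II had 4 higher and 0 lower, beside 3.17% of all genes called (0.923% higher and 2.24% lower). These included Rpl27 (0.53 ± 0.11), Rps21 (0.51 ± 0.13) and Rps28 (0.42 ± 0.09). Rps21 stood at 1288 and 1381 in arm II and at 875.6 and 1002 in arm I. Rps28 stood at 3639 and 3470 against 2665 and 2636. The arms did not overlap for either gene in either GFP state. The 4 calls became 0 without either GFP-positive library of arm I or GFP-positive library B of arm II, and 1 or 2 without GFP-positive library A of arm II, GFP-negative library B of arm I, or any 1 library of day 0 acetone, K, L or M.

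The 10 calls in GFP-negative cells became 5 and 4 without day 0 acetone B or C, and 6 and 1 without arm I GFP-negative A or B. They became 0 and 4 without arm II GFP-negative A or B, and 1 without set L A or B. With library totals as scaling 14 members were higher among GFP-negative cells and 23 among GFP-positive cells, and none was lower. Arm II GFP-negative libraries had 35.8% and 36.7% mitochondrial reads. Phagocyte markers there summed to 27.8 to 55.6 CPM against 794 to 810 in arm I, with C1qa, C1qb, C1qc, Csf1r and Lyz2 at 0 reads (Lyz2 also in arm I), and keratinocyte markers to 330 to 459 against 2251 to 2573. Among GFP-positive cells phagocyte markers summed to 326 to 337 in arm II against 658 to 836 in arm I, and keratinocyte markers to 527 to 638 against 1105 to 1409. Neutrophil markers summed to 11.5 to 11.9 against 82 to 89.2 in GFP-negative and to 11.6 to 38.6 against 76.2 to 85.2 in GFP-positive cells. T cell markers summed to 3235 to 3597 in arm II against 4336 to 4414 in arm I among GFP-negative cells. Among GFP-positive cells they summed to 3085 to 3324 against 2237 to 2427. Fibroblast markers summed to 11.9 to 39.7 in arm II against 4.6 to 12.7 in arm I among GFP-negative cells. In GFP-positive cells these were 41.4 to 44.1 against 1.64 to 2.7. The part of these in the arm differences was not tested.

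Other genes of translation at day 1 included Npm1, a nucleolar chaperone of ribosome assembly, which rose in GFP-positive over GFP-negative cells by 1.15 on the log2 scale. TOP-type genes had 6 risen and 0 fallen of 21 in that comparison (28.6%, median 0.28), beside 12.1% of all genes called, and 8 risen and 1 fallen against day 0 (42.9%, beside 25.6%). Control genes had 3 risen and 1 fallen of 24 over GFP-negative cells (16.7%, beside 12.1%), with the cap-binding protein gene Eif4e at 1.33 and Myc at 1.29. Against day 0 acetone, GFP-positive cells had higher Eif4e (2.09 ± 0.18), Larp1 (1.65 ± 0.17) and Myc (3.05 ± 0.42). These genes were picked from the 24 control genes by smallest p, and the rest of that list is not given here. Mitochondrial ribosomal protein genes had 5 risen and 6 fallen of 76 against day 0 (14.5%, below the 25.6% of all genes), among them Mrps6 (2.09 ± 0.32) and Mrps16 (−1.36 ± 0.23).

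The second experiment, tested apart from the first, had few calls among the members. The day 2 cells were untreated, while those of days 11 and 42 came from acetone or TA skin. Time and treatment thus cannot be told apart in the comparison of these days. Days 11 and 42 together had 0 members higher and 3 lower of 80 than day 2 CD69+CD103+ (median −0.00, against −0.08 over all genes), 3.75% beside 8.21% of all genes (3.33% higher and 4.89% lower). The 3 were Rps27l, Rps2 and Rpl41. Rps27l had 186.3 and 188.4 at day 2 and a range of 88.1 to 152.9 with a median of 109.7 over the 8 late libraries (−0.75 ± 0.18, edgeR adjusted p = 0.0115). Rps2 had 2108 and 1983 at day 2, and 1103 to 1743 with a median of 1326 later (−0.58 ± 0.12, edgeR adjusted p = 0.00451). Rpl41 had 2869 and 2816 at day 2, and 1771 to 2741 with a median of 2021 later (−0.44 ± 0.13, edgeR adjusted p = 0.0444). In none of these genes did the late libraries reach the day 2 values.

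Rplp0 had 2702 and 2534 at day 2 and was not called (−0.31 ± 0.11, edgeR adjusted p = 0.108), and Rps6 (−0.03), Rpsa (0.04), Rpl22 (−0.22) and Rpl13a (0.20) were not called either. The 3 calls became 0 and 1 without day 2 CD69+CD103+ replicate 1 or 2. Mitochondrial ribosomal protein genes had 0 risen and 13 fallen of 76 (17.1%, beside 8.21% of all genes, median −0.69), led by Mrpl53 (−1.34 ± 0.25). TOP-type genes had 1 risen (Eef2, 0.54) and 2 fallen (Npm1, −0.67, and the histone chaperone gene Nap1l1, −0.65). Keratinocyte markers summed to 4775 to 6906 CPM at day 2 and 1845 to 4778 later, with 6 of 14 lower and 1 higher. Neutrophil markers summed to 121 to 130 at day 2 and 2.22 to 18.3 later, with 2 of 3 tested lower, and S100a8, Csf3r and Retnlg were at 0 reads in all 4 late sets, Csf3r also at day 2. T cell markers summed to 3975 to 4011 at day 2 and 4376 to 6282 later, with 2 of 6 higher. Fibroblast markers summed to 84.7 to 176 at day 2 and 53.5 to 417 later, lowest in set P and highest in set S. The part of these in the result was not tested.

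**Figure D5:**
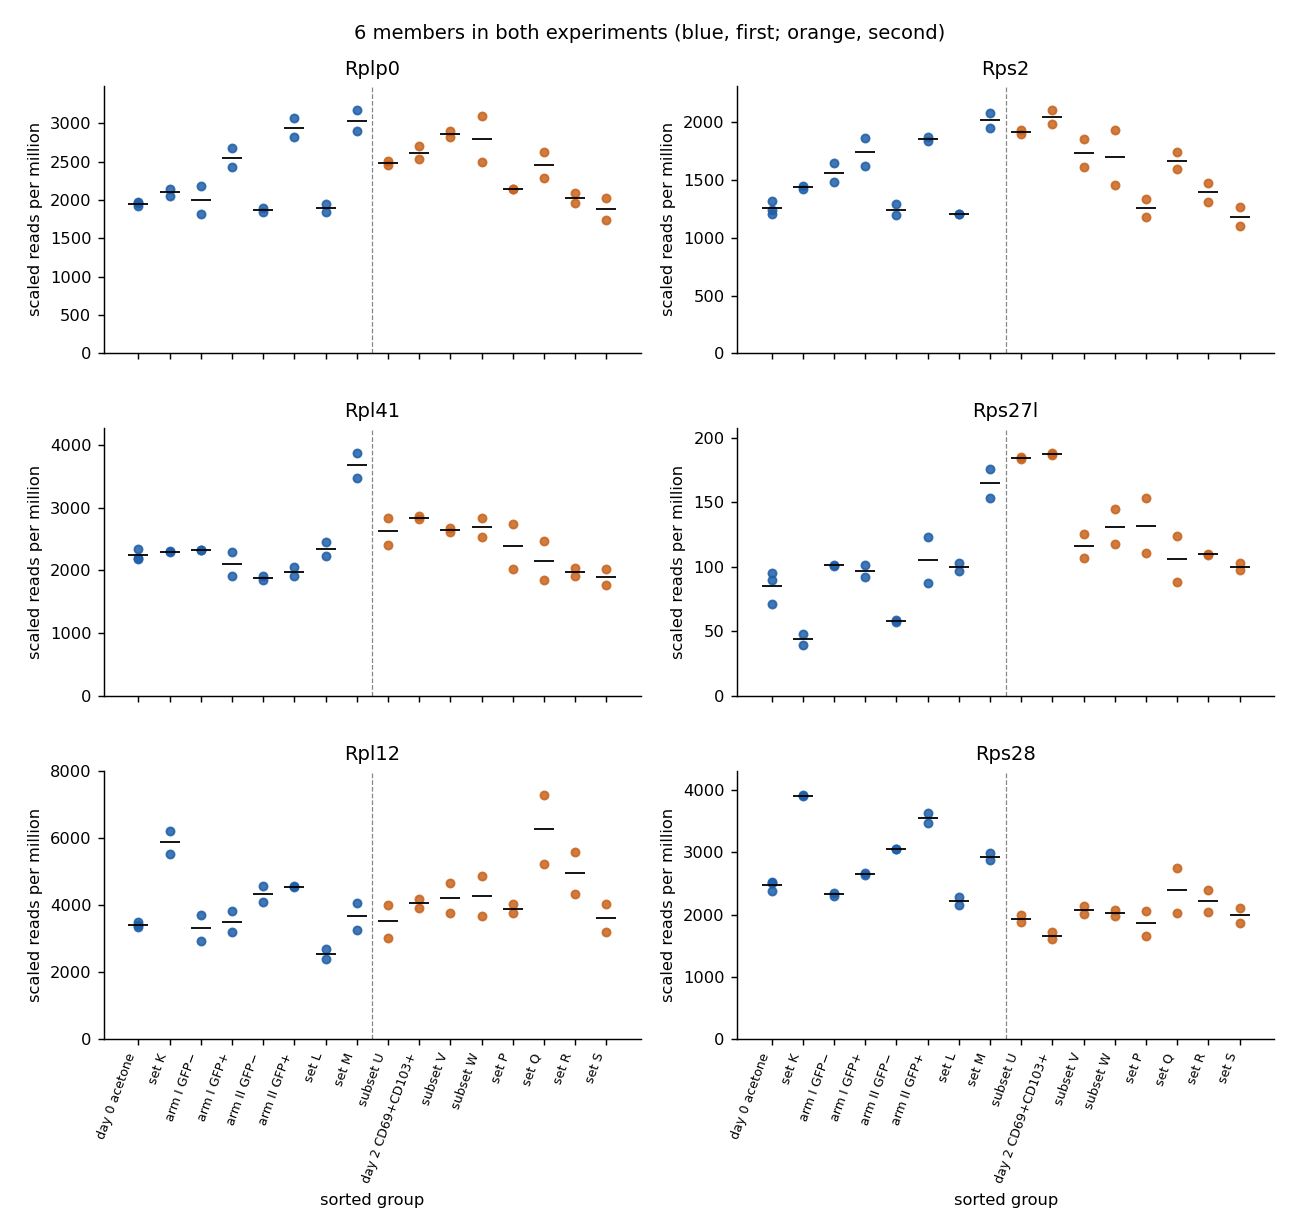
Scaled CPM of 6 members in every library, by sorted group, with the first experiment in blue and the second in orange; points are libraries and lines group means. Within the first experiment the means of Rpl12 and Rps28 are highest in set K. Those of Rpl41, Rps2, Rplp0 and Rps27l are highest in set M. For Rplp0 set M (3174 and 2895) overlaps arm II GFP-positive cells (2823 and 3065). The 2 experiments were scaled apart.

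Among day 2 subsets, CD69+CD103+ cells and the mean of the other subsets differed in 0 of 80 members by edgeR, beside 0.368% of all genes called. At an unadjusted p under 0.05 in edgeR there was 1 member, and DESeq2 called 0. The 3 ways to set 2 subsets against 2 gave no called member by edgeR, beside 1.66%, 0.0327% and 0.302% of all genes called. At the looser threshold of an unadjusted p under 0.05 in edgeR there were 12, 0 and 0 members. DESeq2 called 2 members in the first of these. Rps27l had 186.3 and 188.4 in CD69+CD103+ cells, 185.2 and 183.5 in subset U, 125.3 and 106.8 in V, and 144.5 and 117.3 in W. The first 2 subsets did not overlap with the other 2 for this gene.

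The 3 ways to set 2 of the late sets against 2 likewise gave no called member by edgeR. Taken in order, they were R and S against P and Q, Q and S against P and R, and P and S against Q and R. Of all genes 1.67%, 0.474% and 0.4% were called. The unadjusted p of edgeR was under 0.05 for 18, 1 and 30 members. This threshold is looser than that of the shares of all genes, and the matching shares are not given here. DESeq2 called 2, 0 and 4 members as lower. In the last of these 73 of 80 members lay below 0, with a median of −0.23 against 0.00 over all genes. Members of a library share its depth and scaling, so these are not 73 separate observations. With library totals as scaling that median over all genes moved by 0.11. Rpl12 had the smallest p, with 3757 and 4024 in P and 3204 and 4035 in S, and 7280 and 5238 in Q and 5573 and 4336 in R. Sets P and S lay below Q and R without overlap (−0.57 ± 0.14, edgeR adjusted p = 0.0983).

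Most members followed a common course over the libraries. The correlation of a member's log2 value with the median of the other members had a median of 0.758 over the 17 libraries of the first experiment (81 members, 68 above 0.5). It was 0.639 over the 16 libraries of the second (80 members, 50 above 0.5). The members least like the rest in the first experiment were Rpl30 (−0.267), Rps27l (−0.094), Rpl7l1 (−0.023), Rpl10l (0.048) and Rpl34 (0.107). In the second they were Rps4y2 (−0.543), Rpl30 (−0.153), Rps23 (−0.150), Rps27 (−0.126) and Rpl21 (−0.108). Of these 9, Rpl30, Rpl10l, Rpl34, Rps4y2 and Rps27 had under 1000 reads in each table. These values are a description, since members of a library share its depth and scaling.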

How the data were processed

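CEL-seq2 libraries of sorted skin T cells (33 in all) were analysed. The deposited values are counts, whole reads for each gene and library. The tools named in the submitters' processing notes are bcl2fastq 2.2, BWA 0.7.15 and HTSeq, and the build is GRCm38. The handling of molecular barcodes, strand and multiple matches was not given in the sources used here. Groups were read from column codes only where a single reading fits the labels. The test used edgeR 4.0.16 in R 4.3.3: filterByExpr, TMM scaling, robust dispersions and quasi-likelihood F tests, with 1 mean per group over all libraries of an experiment. Benjamini-Hochberg adjustment ran over all genes tested (11588 and 12236), and a gene was called at an adjusted p under 0.05. The SE of a log2 difference was taken as the difference divided by the square root of the F statistic. The procedure was tested on simulated data in which randomly drawn genes changed in either direction. A shared shift of highly expressed genes was not simulated, and the outcome is not given here.

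The members and lists were chosen with earlier results of these data known. Named in each comparison were up to 5 called members with the largest difference in each direction. Also named were the stalk genes, Rpsa, Rps6, Rpl13a, Rps27a, Rpl22 and paralogs, the members with the most reads, the members least like the rest, and up to 3 genes per other list by smallest p. One member is counted but not reported by name here and has no row in the plot of members by library. Rps23, Rps21 and Rps28 in some sentences, and the members that led in another comparison, were chosen after their values were seen. Alternatives were median-of-ratios size factors, no low-count filter, DESeq2 1.42.0, scaling on other genes, mitochondrial genes left out, a replicate block and leaving out each library. Scaling by library totals was chosen after seeing the data. Replicate letters were not treated as pairing samples, since the labels do not say that they do. Of 28 pairs of groups, 0 had same-letter deviations correlated over 0.1. Such low correlations do not exclude an animal or batch shared by a letter.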

Additional observations from a re-analysis of the deposited data

How the results depend on the processing

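Counts of called members are compared here with those of the report, and for K, L and M among each other, day 2 subsets and late sets they count a member called in any of the 3 comparisons once. With size factors by median of ratios, and with mitochondrial genes left out, all 17 counts stayed within 1.5 times. DESeq2 called 17 members for GFP state over both arms, 5 in arm I and 9 in arm II, 18 and 17 between the arms in GFP-negative and GFP-positive cells, 1 in GFP-negative arm I cells against day 0 acetone, 4 in L and 43 in M against day 0, 7 in the late comparison, 2 among day 2 subsets and 5 among late sets. With no low-count filter the count was 2 for GFP state in arm I, 3 in L and 4 among late sets. With scaling on genes other than members and mitochondrial genes it was 20 in K and 2 between the arms in GFP-positive cells. With library totals as scaling, chosen after seeing the data, it was 3 for GFP state in arm I, 23 between the arms in GFP-positive cells, 9 in GFP-negative arm I cells, 14 in K, 12 in M, 5 in the late comparison, 1 among day 2 subsets and 1 among late sets. The differences of Rplp1 and Rps6 in GFP-positive cells against day 0 acetone then turned to −0.074 and −0.006. The cause was not tested.

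With a replicate block by letter, a pairing that the labels do not state, the count was 11 in K, 0 in L, 13 in M, 6 and 2 between the arms in GFP-negative and GFP-positive cells, and 2 and 14 in GFP-negative arm II and in GFP-positive cells against day 0 acetone. The second experiment's columns carry no letters, so no paired analysis was possible there.

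Leaving out 1 library at a time gave 3 to 18 calls for GFP state over both arms, 0 to 3 in arm I, 2 to 6 in arm II and 0 to 0 for the difference between them. Between the arms it gave 0 to 10 in GFP-negative and 0 to 4 in GFP-positive cells. Against day 0 acetone it gave 0 to 0 and 1 to 6 in GFP-negative arms I and II, 11 to 31 in GFP-positive cells, 7 to 31 in K, 0 to 2 in L and 10 to 38 in M. It gave 18 to 60 among K, L and M, 0 to 4 late against day 2, 0 to 0 for CD69+CD103+ against other subsets and among day 2 subsets, and 0 to 1 among late sets. With 2 libraries per group, a lone library was assumed to vary like the other groups.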
